A study of Mus musculus with 15 samples.

Results

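The 38 genes described here are imprinted genes of the mouse, chosen by name and found in all 15 count tables among 24982 gene symbols. By textbook knowledge 17 of them are expressed mainly from the maternal chromosome and 21 mainly from the paternal one. Polyadenylated RNA had been sequenced from the embryonic stem cell line E14TG2 while it passed from embryonic stem cells (ESCs), which resemble the naive epiblast, to epiblast-like cells (EpiLCs), a model of the epiblast at about implantation. Each of 5 groups held 3 libraries: ESCs of control genotype at day 0, and cells of control genotype and of Atg7 KO genotype, each at day 2 and at day 4 of the transition. Atg7 encodes the enzyme that activates ubiquitin-like proteins for autophagosome formation. ESCs were kept on growth-arrested mouse embryonic fibroblasts with LIF and the inhibitors PD0325901 and CHIR99021, and the transition was made on fibronectin with activin A, bFGF and serum replacement. How the KO was made, and from how many clones, was not given in the sources used here, and no KO library of day 0 was analysed here.

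An imprinted gene is transcribed from only 1 parental copy because a methylation mark laid down in egg or sperm is kept through the divisions of the embryo. Most imprinted genes lie in clusters that share such a control region. A common arrangement has a long noncoding RNA on one parental chromosome and protein-coding genes on the other. Many paternally expressed genes promote fetal and placental growth and many maternally expressed ones restrain it. ESCs in culture are known to lose or gain these marks. Counts per gene symbol do not separate the parental copies, so the class names below are background, and a change in a level does not tell which copy, or how many copies, gave it.

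Levels are CPM, counts scaled to a common library total, with library sizes scaled by TMM factors. Changes are log2 values ± standard error from 1 edgeR quasi-likelihood model of all 15 libraries. The words rise and fall are kept for members whose p-value, adjusted by the Benjamini-Hochberg method over 15696 tested genes, was under 0.05. A change or a difference is an estimate that may or may not have passed this threshold. Total counts lay between 14059237 and 23371546 per library. Separate cultures are not stated for the 3 libraries of a group, so a p-value here rests on the spread among these libraries, which may be technical. Of the 38 members 36 had enough counts to test. Snrpn and Kcnq1 had not, and Airn and Magel2 reached the filter of 10 counts at a median library size, or 0.605 CPM, in all 3 libraries of only 1 group, control day 4. Airn also reached it in 5 libraries of other groups, more than the 3 that the filter asks for. Magel2 reached it in 2 others, so it was tested only because of the group in which it is highest. Its levels are given without a test, and the counts below leave it out unless it is named.

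Facts of the libraries touch these results. Atg7 was 12.1 to 14.6 CPM in control and 6.84 to 7.53 CPM in KO libraries at day 2, and 19.1 to 19.9 against 10.4 to 12.7 CPM at day 4, so its transcript was lowered, not removed. Hprt, the X-linked purine salvage gene that the E14TG2a line is known to lack, was 183 to 203 CPM in the ESC libraries but 1.59 to 2.94 CPM in the 12 others. Whether a difference from ESCs belongs to the day or to the line therefore cannot be told apart. This holds below for each change that starts from ESCs, also where it is worded as a rise or a fall. The comparison of control day 4 with control day 2, which uses no ESC library, is given first. The summed level of 16 fibroblast markers was 1908, 998 and 284 CPM in ESC replicates 1, 2 and 3. It was 401 to 448 CPM in control and 577 to 948 CPM in KO at day 2, and 157 to 164 CPM in control and 213 to 270 CPM in KO at day 4. ESC replicate 3 and KO day 2 replicate 2 stood apart on these markers. The summed level of 12 endoderm markers was 29.0 to 51.0 CPM in ESCs, 164 to 181 CPM in control day 2 and 396 to 573 CPM in control day 4. In KO the endoderm sum was 203 to 243 CPM at day 2, above each control library, and 504 to 614 CPM at day 4, overlapping control. Of 10 endoderm markers tested 4 rose and 2 fell in KO at day 2, beside 20.4% and 21.4% of all tested genes. At day 4, 1 rose and 0 fell, beside 19.5% and 18.1%. The 8 pluripotency markers summed to at least 2867 CPM in each library. At day 2 this sum was 4310.5 to 4436 CPM in control and 4799 to 4930 CPM in KO. At day 4 it was 2867 to 3068 CPM in control and 3528 to 3726 CPM in KO. Of these 8 markers 3 rose and 2 fell in KO at day 2, and 6 rose and 0 fell at day 4, beside the same shares of all genes. Their median was -0.006 at day 2 and 0.37 at day 4. The 8 neural markers summed to 27.4 to 34.4 CPM in control and 41.6 to 46.1 CPM in KO at day 2. At day 4 they summed to 86.9 to 90.5 and 108 to 113 CPM. Of 7 neural markers tested 3 rose and 2 fell in KO at day 2, and 2 rose and 0 fell at day 4. Their median was 0.53 at day 2 and -0.17 at day 4. Such sums weigh abundant genes most and do not stand for each marker. In such bulk samples, fewer cells of a type and less RNA per cell cannot be told apart.

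RefSeq promoter windows on GRCm38.p6, which run from 250 bases before to 50 after a start, were found for 29 of the 38 members, 43 windows in all. The methylation-dependent zinc finger protein ZFP57, which guards imprints, is known for the hexamer TGCCGC. Searched on both strands, TGCCGC lay in 12 of the 43 member windows (27.9%) and in 11.6% of all 32851 windows. The median number of CpG dinucleotides was 15 in member windows and 7 in all windows, so the member windows were also richer in the letters of the motif. The 250 bases before the start are printed for Mest, Grb10, Dlk1 and Meg3, because their levels moved far and in opposite directions. Where a gene had several windows, the one with the most CpG dinucleotides was taken. Capitals mark the hexamer, which appears here as its reverse complement, GCGGCA.
Mest: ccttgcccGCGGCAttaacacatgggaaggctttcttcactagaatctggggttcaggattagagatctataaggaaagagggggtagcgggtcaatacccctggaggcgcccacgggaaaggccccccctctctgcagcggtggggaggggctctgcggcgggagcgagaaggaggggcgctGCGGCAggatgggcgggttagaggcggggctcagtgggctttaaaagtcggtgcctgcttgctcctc
Grb10: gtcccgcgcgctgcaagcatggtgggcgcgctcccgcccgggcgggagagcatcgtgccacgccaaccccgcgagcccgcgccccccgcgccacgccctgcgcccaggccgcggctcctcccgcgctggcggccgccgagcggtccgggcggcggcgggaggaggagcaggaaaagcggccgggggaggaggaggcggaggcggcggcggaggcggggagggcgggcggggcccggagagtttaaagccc
Dlk1: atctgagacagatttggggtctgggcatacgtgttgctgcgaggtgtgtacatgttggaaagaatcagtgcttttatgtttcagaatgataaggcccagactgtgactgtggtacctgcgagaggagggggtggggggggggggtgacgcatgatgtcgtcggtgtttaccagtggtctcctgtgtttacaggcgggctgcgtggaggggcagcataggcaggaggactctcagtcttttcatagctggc
Meg3: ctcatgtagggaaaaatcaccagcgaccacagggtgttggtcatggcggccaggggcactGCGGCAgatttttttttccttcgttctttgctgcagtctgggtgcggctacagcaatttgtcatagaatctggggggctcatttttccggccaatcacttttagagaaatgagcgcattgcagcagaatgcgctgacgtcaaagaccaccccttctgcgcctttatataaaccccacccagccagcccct
Mest (chr6:30737800-30738049, plus strand) has 14 CpG dinucleotides and 2 matches, which begin 242 and 67 bases before the start. Meg3 (chr12:109540746-109540995, plus strand) has 10 and 1 match, at 190 bases before the start. Grb10 (chr11:12037421-12037670, minus strand) has 40 CpG dinucleotides and Dlk1 (chr12:109452573-109452822, plus strand) has 8, and neither stretch holds the hexamer, although the 50 bases after the Grb10 start do. A match is a string of letters, and these data hold no methylation or binding.

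From day 2 to day 4 in control cells, paternally expressed members mostly rose and maternally expressed ones were divided. Of 19 paternally expressed genes tested 14 rose and 2 fell, with a median of 1.07. Of the 16 maternally expressed genes tested 4 rose and 7 fell, with a median of -0.19. Together 18 of 35 members rose and 9 fell, where 33.9% of all tested genes rose and 34.6% fell, with a median of -0.01. The 4 maternally expressed genes that rose were Meg3, Rian and Mirg, which are noncoding RNAs of 1 cluster, and H13. The 2 paternally expressed genes that fell were Dlk1 and Peg3. The classes were not tested against each other, since genes of a cluster are not independent and members are not replicates.

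Against ESCs, 14 members were higher and 10 lower in control cells at day 2, beside 35.6% and 34.9% of all tested genes. At day 4, 20 were higher and 9 lower than in ESCs, beside 36.2% and 35.6%. At day 4 the paternally expressed members had a median of 1.10, with 15 higher and 2 lower (Igf2 and Peg3), and the maternally expressed ones a median of -0.34, with 5 higher and 7 lower. The median of all genes was 0.02. In KO cells, 18 members rose and 7 fell from day 2 to day 4, where 31.2% of tested genes rose and 32.0% fell. There, 12 of the paternally expressed genes rose and 2 fell, and 6 of the maternally expressed ones rose and 5 fell. These comparisons share libraries and are not independent of one another. The genes of chromosome 6, which holds Peg10, Sgce, Mest and Copg2, had a median of 0.39 from control day 2 to day 4 and of 0.44 from ESCs to control day 4. Those of chromosome 18, which holds Impact, had medians of 0.35 and 0.32.

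**Figure D1:**
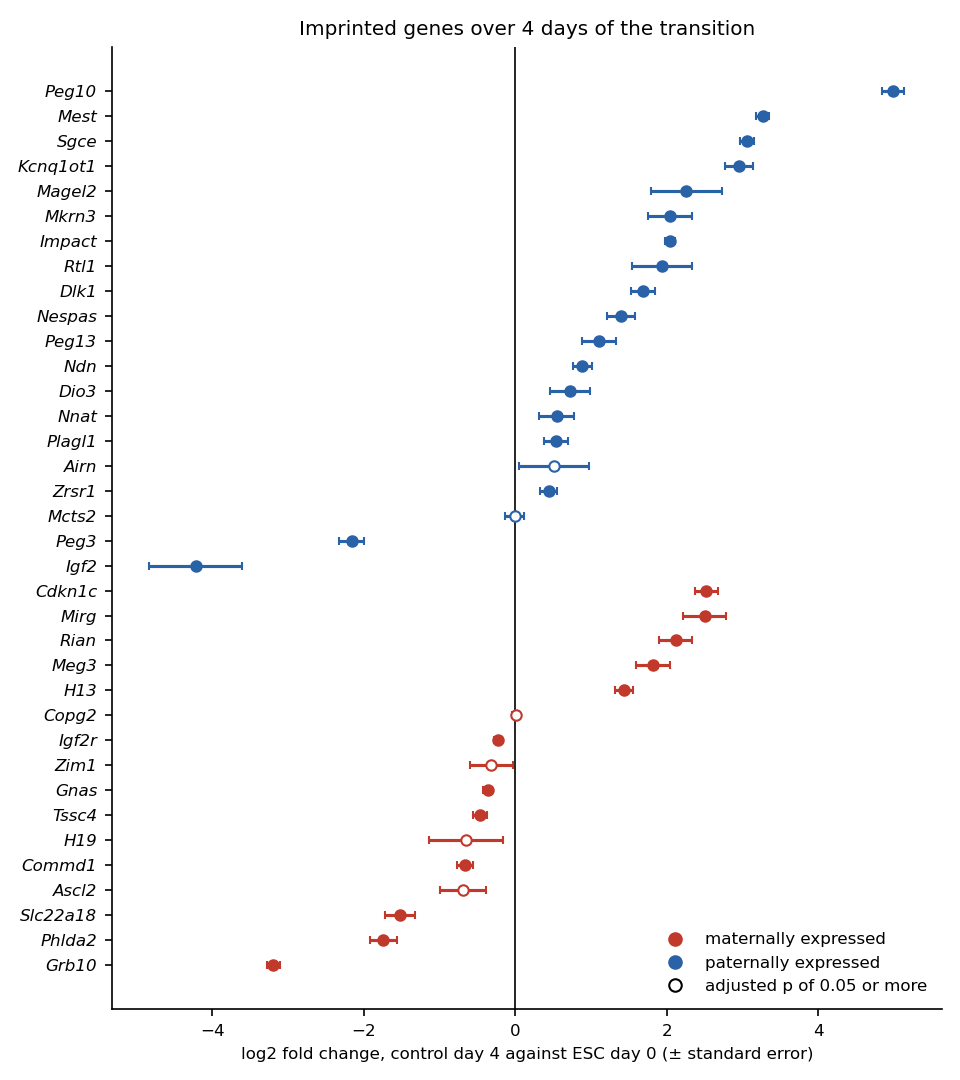
Log2 fold change of the 36 tested members from ESCs to control day 4 (horizontal axis), 1 row a gene, with standard errors from the edgeR model as bars. Paternally expressed members are blue and maternally expressed ones red, and open points did not pass. Of the 19 paternally expressed members other than Magel2, 15 lie to the right and passed, and Igf2 and Peg3 lie to the left. Magel2 is drawn too, but it was tested only because of control day 4, its highest group.

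The share of all counts that fell on the 38 members was 0.146% to 0.227% in ESC libraries, 0.265% to 0.268% in control day 2 and 0.599% to 0.615% in control day 4. Peg10 alone made up 4.27% to 4.79% of the members' counts in ESCs and 49.3% to 53.6% in control day 4. Per kilobase of exon, H19 was the highest member in ESCs, at a mean of 81.9 ± 70.7 CPM per kilobase (SD, n = 3), and its spread covered the next members, Grb10 at 27.7 ± 0.19 and Igf2r at 26.3 ± 0.07. In control day 4, Peg10 was at 456 ± 27.2, Mest at 90.3 ± 4.73 and Impact at 63.3 ± 5.34 CPM per kilobase. H19 followed at 52.2 ± 10.4, and its highest library, at 58.4, lay just under the lowest of Impact, at 59.0.

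Igf2, a fetal growth factor expressed from the paternal copy, and H19, the noncoding RNA expressed from the maternal copy, start 88.7 kb apart on chromosome 7 and share enhancers. Igf2 was 228, 128 and 16.3 CPM in ESC replicates 1, 2 and 3, and H19 was 377, 198 and 29.3 CPM. Both therefore differed by more than 10-fold between libraries of 1 group, in the same order as the fibroblast markers. Their log2 ratio was nearly constant in ESCs, at -0.73 ± 0.11 (SD, n = 3). At day 2 in control cells Igf2 was 13.8, 13.6 and 13.1 CPM and at day 4 it was 6.25, 6.35 and 7.36 CPM. Against ESCs, Igf2 changed by -3.20 ± 0.56 at day 2 (edgeR adjusted p = 7.71e-05), and the change at day 4 was -4.21 ± 0.61 (edgeR adjusted p = 1.11e-05).

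H19 in control cells was 139, 162 and 134 CPM at day 2 and 98.8, 143 and 144 CPM at day 4, which lay inside the range of the ESC libraries. Its change from ESCs did not pass at either day (-0.47 ± 0.48 and -0.65 ± 0.48), and without ESC replicate 3 it was lower, at -0.98 and -1.16. The log2 ratio of Igf2 to H19 was -3.42 ± 0.14 at day 2 and -4.25 ± 0.26 at day 4 (SD, n = 3). With a fibroblast score (the mean log2 level of 3 collagen genes) as a covariate, the sign of the change from ESCs to day 4 turned to 1.76 for Igf2 and 4.60 for H19. The score differs with day, and the part of feeder cells in these 2 genes was not tested otherwise.

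In Atg7 KO cells H19 was 106, 89.5 and 100 CPM at day 2, below each of the control libraries. At day 4 it was 115, 84.8 and 96.6 CPM, and the groups overlapped. Neither difference passed (-0.55 ± 0.48 and -0.38 ± 0.49). In a fit of only the 6 libraries compared, which does not draw on the scatter of the ESCs, H19 was lower in KO at day 2, at -0.54 (edgeR adjusted p = 2e-06), and at day 4, at -0.37 (edgeR adjusted p = 0.0204). Igf2 was 15.4, 24.5 and 18.1 CPM in KO at day 2 and 12.6, 9.51 and 8.09 CPM at day 4, above each control library of its day. Its differences of 0.53 ± 0.56 and 0.60 ± 0.67 did not pass. The summed fibroblast markers given above were also higher in each KO library than in the control libraries of its day. Of the 16 markers 4 rose in KO at day 2 (25.0%) and 3 at day 4 (18.8%), beside 20.4% and 19.5% of all tested genes. None of them fell, beside 21.4% and 18.1% of all tested genes. The median of the markers was 0.72 at day 2 and 1.12 at day 4, beside -0.01 and -0.01 for all genes. These calls come from the model of all 15 libraries, which draws on the scatter of the markers among the ESCs.

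**Figure D2:**
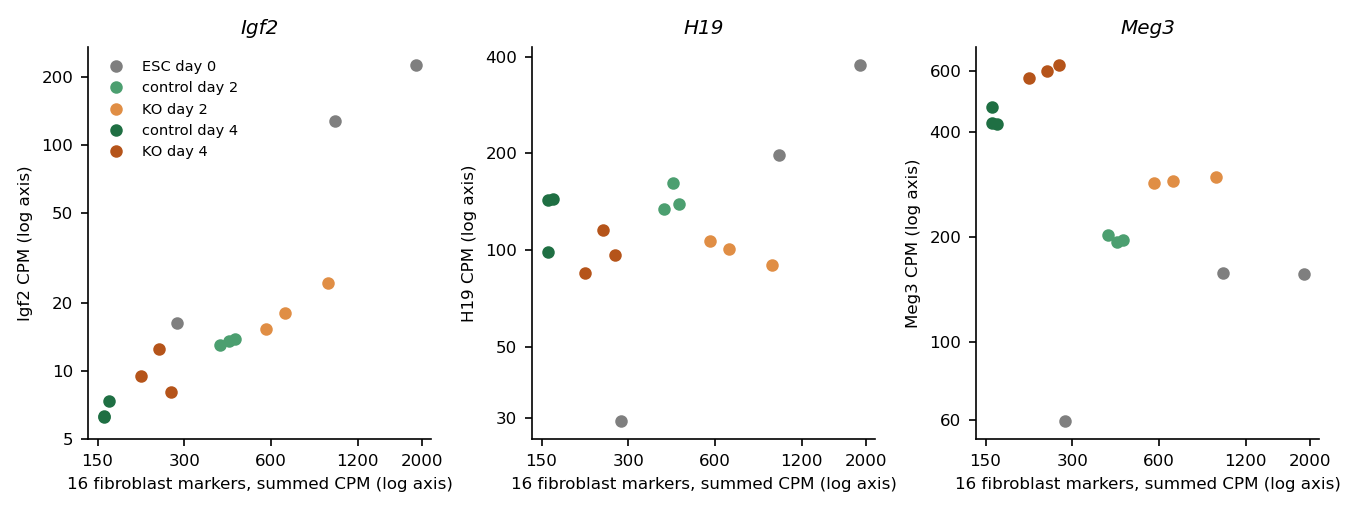
Levels of Igf2, H19 and Meg3 (CPM, log axis) against the summed level of 16 fibroblast markers (CPM, log axis), 1 point a library, in all 15 libraries. The 3 ESC libraries spread from 284 to 1908 CPM of markers and from 16.3 to 228 CPM of Igf2.

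Among the tested maternally expressed members the most negative change from ESCs to control day 4 was that of Grb10, at -3.19 ± 0.09. Grb10, on chromosome 11, encodes an adaptor that limits insulin and IGF receptor signalling, and its major form is maternally expressed outside the brain. Grb10 was 253, 253 and 250 CPM in ESCs, 42.5, 47.2 and 39.4 CPM in control day 2, and 26.8, 30.6 and 25.4 CPM in control day 4. No 2 of these groups overlapped, and it fell by 2.55 ± 0.08 up to day 2 and by 0.64 ± 0.09 from day 2 to day 4. Unlike Igf2 and H19, it varied little among the ESC libraries.

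The KO effect on Grb10 differed between the days. In KO cells Grb10 was 41.9, 43.4 and 38.9 CPM at day 2, within the control range, and 65.7, 65.3 and 56.6 CPM at day 4, above every control library. The change of -0.05 ± 0.08 at day 2 did not pass. At day 4 it was 1.18 ± 0.08 (edgeR adjusted p = 1.11e-07), and the difference between the days was 1.24 ± 0.12 (edgeR adjusted p = 1.88e-06).

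Igf2r, the maternally expressed receptor that takes IGF2 to lysosomes, was steady: 244 to 246 CPM in ESCs, 235 to 241 CPM in control day 2 and 192 to 221 CPM in control day 4. It fell by 0.18 ± 0.05 from day 2 to day 4. In KO cells it was 226, 208 and 214 CPM at day 2 and 248, 246 and 242 CPM at day 4. The day 4 increase was 0.23 ± 0.05 (edgeR adjusted p = 0.00296). The day 2 decrease, -0.14 ± 0.05 (edgeR adjusted p = 0.0421), was lost without control day 2 replicate 1 (-0.15), 2 (-0.14) or 3 (-0.14) and without KO day 2 replicate 2 (-0.12) or 3 (-0.14).

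Airn, the paternally expressed antisense RNA that silences Igf2r, starts 28.4 kb from the start of Igf2r and overlaps it. It was 0.264 to 1.07 CPM in ESCs, 0.331 to 0.725 CPM in control day 2 and 0.962 to 1.24 CPM in control day 4. Its rise from day 2 to day 4, 1.19 ± 0.47 (edgeR adjusted p = 0.0333), was lost without control day 2 replicate 2 (0.99) or 3 (1.05) and without control day 4 replicate 2 (1.09) or 3 (1.21). In KO cells Airn was 0.166 to 0.557 CPM at day 2 and 0.457 to 0.749 CPM at day 4. The day 4 libraries lay below every control library, at -0.83, but Airn did not pass between KO and control at either day. Strand use in the counting was not given in the sources used here, so reads of antisense and overlapping partners cannot be told apart, and this holds for each such pair below.

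Of 12 further genes of IGF signalling, 3 rose and 3 fell from day 2 to day 4 in control cells, or 25.0% each way beside 33.9% and 34.6% of all tested genes. In KO cells 3 rose and 3 fell at day 2, again 25.0% each way, beside 20.4% and 21.4%. At day 4, 3 rose and 1 fell, or 25.0% and 8.33% beside 19.5% and 18.1%. Igf2bp3, an RNA-binding protein that binds Igf2 mRNA, was 125 ± 1.93 CPM in control against 176 ± 13.4 CPM in KO at day 2, and 114 ± 7.19 against 183 ± 7.71 CPM at day 4 (SD, n = 3). Igf1r, the receptor of IGF1 and IGF2, rose in KO at day 4 by 0.56 ± 0.08. Igfbp3, a binding protein for IGFs, fell in KO at both days, by 0.40 ± 0.10 and 0.65 ± 0.10.

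Peg10 and Sgce start 99 bases apart on opposite strands of chromosome 6 and are both paternally expressed. Peg10 derives from a retrotransposon and is needed for the placenta, and Sgce encodes epsilon-sarcoglycan. Peg10 was 120, 99.1 and 68.1 CPM in ESCs, 706, 728 and 693 CPM in control day 2, and 2840, 3196 and 3077 CPM in control day 4. It rose by 2.89 ± 0.14 up to day 2 and by 2.10 ± 0.13 from day 2 to day 4, and no groups overlapped. Sgce was 8.46, 7.51 and 7.58 CPM in ESCs, 39.0, 38.6 and 37.2 CPM in control day 2, and 61.2, 69.8 and 66.3 CPM in control day 4, with increases of 2.28 ± 0.09 and 0.78 ± 0.08.

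In KO cells the pair did not move together. Peg10 was 293, 284 and 303 CPM in KO at day 2, less than every control library, and fell by 1.27 ± 0.13 (edgeR adjusted p = 1.55e-06). Sgce was 42.5, 47.1 and 46.6 CPM there, above every control library, at 0.25 ± 0.08 (edgeR adjusted p = 0.0153), a rise lost without control day 2 replicate 3 or KO day 2 replicate 2 or 3 (0.22 in each). At day 4 both were lower in KO. Peg10 was 2375, 2035 and 2314 CPM, at -0.44 ± 0.12 (edgeR adjusted p = 0.0103), a fall that was lost without KO day 4 replicate 2 (-0.38). Sgce was 37.2, 38.2 and 32.5 CPM, at -0.87 ± 0.08 (edgeR adjusted p = 5.9e-07).

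The KO effect differed between the days in opposite directions, by 0.83 ± 0.18 for Peg10 (edgeR adjusted p = 0.00158) and by -1.12 ± 0.11 for Sgce (edgeR adjusted p = 2.01e-06). The log2 ratio of Peg10 to Sgce was 4.21 ± 0.03 in control and 2.69 ± 0.10 in KO at day 2. At day 4 it was 5.53 ± 0.01 and 5.96 ± 0.21 (SD, n = 3).

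Mest, a paternally expressed gene for a hydrolase-fold protein, and Copg2, which encodes a coatomer subunit and is described as maternally biased in some tissues, overlap at their ends on chromosome 6. Mest was 43, 31.1 and 37 CPM in ESCs, 153, 148 and 145 CPM in control day 2, and 378, 348 and 344 CPM in control day 4. It rose by 2.01 ± 0.08 and then by 1.26 ± 0.08, with no overlap of groups. Copg2 lay between 128 and 139 CPM in the 9 control libraries, ESCs included, and did not pass in any control comparison. In KO at day 2 Copg2 moved and Mest did not pass: Copg2 was 177, 169 and 177 CPM and rose by 0.43 ± 0.05 (edgeR adjusted p = 4.38e-06), while Mest, at 161, 150 and 150 CPM, overlapped the control libraries. At day 4 Mest was 312, 324 and 303 CPM in KO, under each control library, and its change of -0.19 ± 0.08 did not pass (edgeR adjusted p = 0.064). Copg2, at 143, 148 and 141 CPM in KO, did not pass at day 4 either (0.09 ± 0.05), and its KO effect differed between the days by -0.33 ± 0.07 (edgeR adjusted p = 0.00111).

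**Figure D3:**
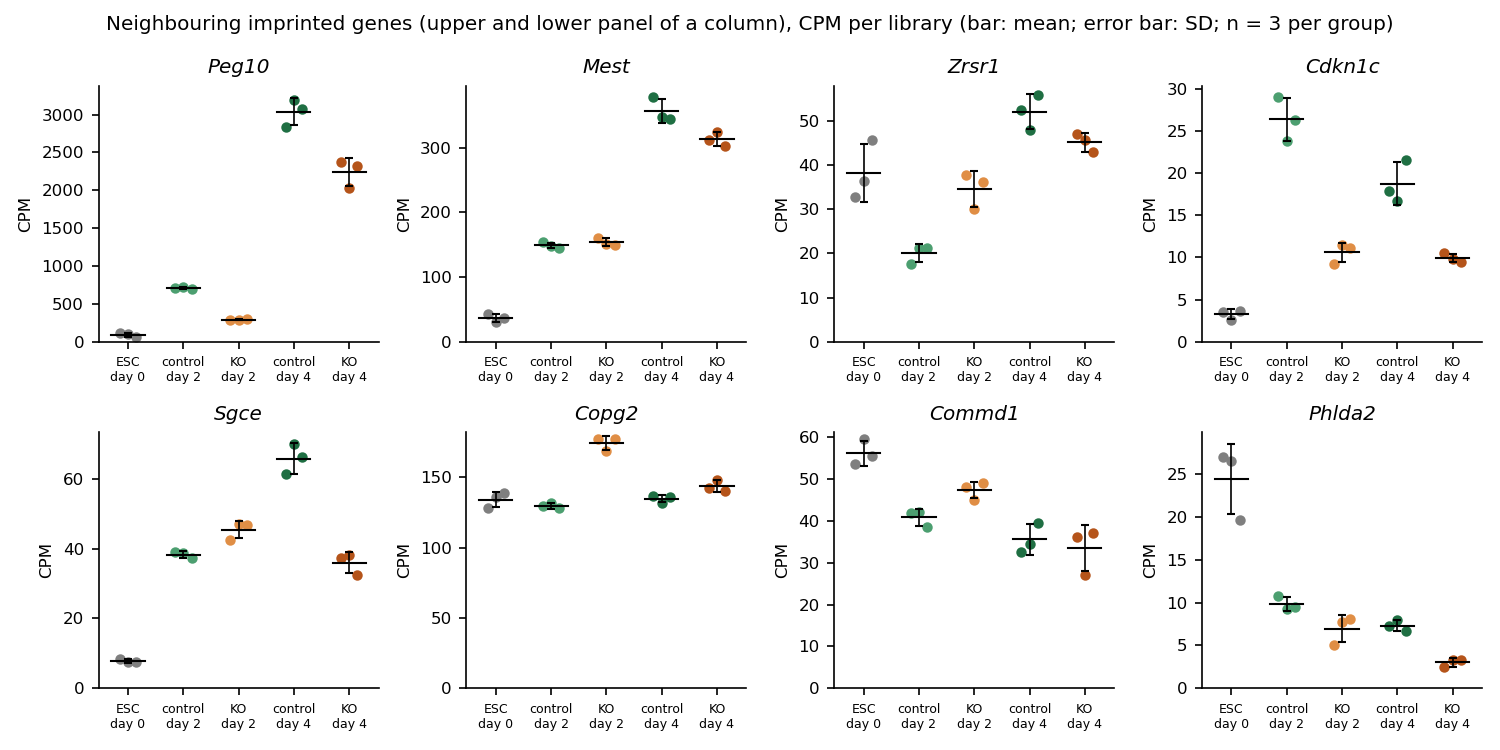
Levels of neighbouring members (vertical axis, CPM) by group, with a point a library, the mean as a bar and the SD as an error bar. Each column of panels holds a pair: Peg10 and Sgce, Mest and Copg2, Zrsr1 and Commd1, Cdkn1c and Phlda2. Peg10 rises from 68.1 to 120 CPM in ESCs to 2840 to 3196 CPM in control day 4, while Copg2 stays between 128 and 139 CPM in the control libraries.

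The Dlk1-Dio3 cluster on chromosome 12 spans 826.2 kb from Dlk1 to Dio3. Its paternally expressed genes are Dlk1, for a membrane protein related to Notch ligands, Rtl1, a retrotransposon-derived placental gene, and Dio3, for a deiodinase that inactivates thyroid hormone. The maternal copy gives the noncoding RNAs Meg3, Rian, which hosts snoRNAs, and Mirg, which hosts microRNAs. Loss of the maternal RNAs is a known defect of some mouse pluripotent lines, and here Meg3 and Rian were present in all 15 libraries, at 59.5 CPM or more for Meg3 and 54.1 CPM or more for Rian.

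The maternal RNAs rose from day 2 to day 4. Meg3 was 197, 194 and 203 CPM in control day 2 and 474, 424 and 423 CPM in control day 4, a rise of 1.15 ± 0.22. Rian went from 138, 140 and 142 CPM to 507, 419 and 471 CPM, a rise of 1.74 ± 0.21. Mirg went from 3.63, 2.60 and 3.76 CPM to 28.9, 27.5 and 30.6 CPM, a rise of 3.12 ± 0.28. The increase was therefore unequal along the cluster, and no groups overlapped. In ESCs the 3 RNAs were lower in replicate 3, for example Meg3 at 157, 158 and 59.5 CPM, the library lowest in fibroblast markers.

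The paternal genes of the cluster moved differently from one another. Dlk1 was 3.29, 2.44 and 3.23 CPM in ESCs, 39.8, 39.6 and 37.9 CPM in control day 2, and 8.36, 8.97 and 11.7 CPM in control day 4. It rose by 3.71 ± 0.15 and then fell by 2.01 ± 0.12, so its highest group was day 2. Dio3 took the opposite course, with 8.46, 10.5 and 4.02 CPM in ESCs, 2.51, 2.36 and 2.38 CPM in control day 2, and 9.20, 13.7 and 15.0 CPM in control day 4. It fell by 1.66 ± 0.29 and then rose by 2.39 ± 0.29. Rtl1 was 0.223 to 0.472 CPM at day 2 and 2.07 to 3.30 CPM at day 4, a rise of 2.79 ± 0.41. Its transcribed region is antisense to maternal RNAs of the cluster.

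Dlk1 and Dio3 were both lower in KO than in control at day 2 and higher at day 4. Dlk1 in KO cells was 25.0, 29.9 and 29.4 CPM at day 2, below every control library, and 25.0, 21.4 and 24.9 CPM at day 4, above every control library. The change was -0.48 ± 0.11 (edgeR adjusted p = 0.00317) and then 1.29 ± 0.13 (edgeR adjusted p = 1.53e-06), with a difference between days of 1.77 ± 0.17 (edgeR adjusted p = 1.95e-06). Dlk1 thus fell between the days in control cells, while in KO cells the change of -0.24 ± 0.12 did not pass, except without KO day 2 replicate 1 (-0.32). Dio3 in KO was 0.991, 1.12 and 1.33 CPM at day 2 and 24.7, 16.4 and 23.4 CPM at day 4. Its changes were -1.06 ± 0.35 (edgeR adjusted p = 0.0231) and 0.76 ± 0.25 (edgeR adjusted p = 0.0227), and the difference between the days was 1.83 ± 0.43 (edgeR adjusted p = 0.00347). The day 2 call of Dio3 was lost without control day 2 replicate 1 (-1.04) or 2 (-1.08) or KO day 2 replicate 1 (-0.98) or 2 (-1.05), and the day 4 call without control day 4 replicate 1 (0.58) or KO day 4 replicate 1 (0.65) or 3 (0.70).

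The maternal RNAs were higher in KO at day 2. Rian was 255, 265 and 244 CPM in KO against 138 to 142 CPM in control, a rise of 0.87 ± 0.21 (edgeR adjusted p = 0.00316). Meg3 was 285, 297 and 290 CPM in KO against 194 to 203 CPM, at 0.55 ± 0.22 (edgeR adjusted p = 0.0487), a call lost without any 1 of the 6 libraries (0.53 to 0.57). In a fit of only the 6 libraries compared, its adjusted p was 1.29e-09. Mirg was 7.58, 6.12 and 5.23 CPM, at 0.92 ± 0.30, lost without control day 2 replicate 2 or KO day 2 replicate 1 (0.76 in each). Rtl1 was 1.09, 0.957 and 0.900 CPM, at 1.34 ± 0.44, lost without control day 2 replicate 1 (1.10) or KO day 2 replicate 1 (1.25).

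At day 4 none of these 4 genes of the cluster passed between KO and control, although Meg3, at 597, 570 and 623 CPM, and Rian, at 528, 538 and 552 CPM, lay above every control library. The summed level of the fibroblast markers was also higher in KO. With the fibroblast score as a covariate the day 2 change was -0.03 for Meg3, 0.28 for Mirg and 0.39 for Rtl1, and that of Rian was 0.31 and still passed (edgeR adjusted p = 0.0256). At day 4 with that covariate Rian was lower in KO, at -0.40 (edgeR adjusted p = 0.00579), and so was Mirg, at -0.80 (edgeR adjusted p = 0.00938). The score was 6.52 to 7.50 in KO and 5.42 to 5.70 in control at day 2, and 4.31 to 4.76 and 2.90 to 3.12 at day 4. It thus separates the genotypes within each day, so these fits cannot tell a KO effect from the score. The part of feeder cells in the KO changes of these RNAs was not tested otherwise.

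**Figure D4:**
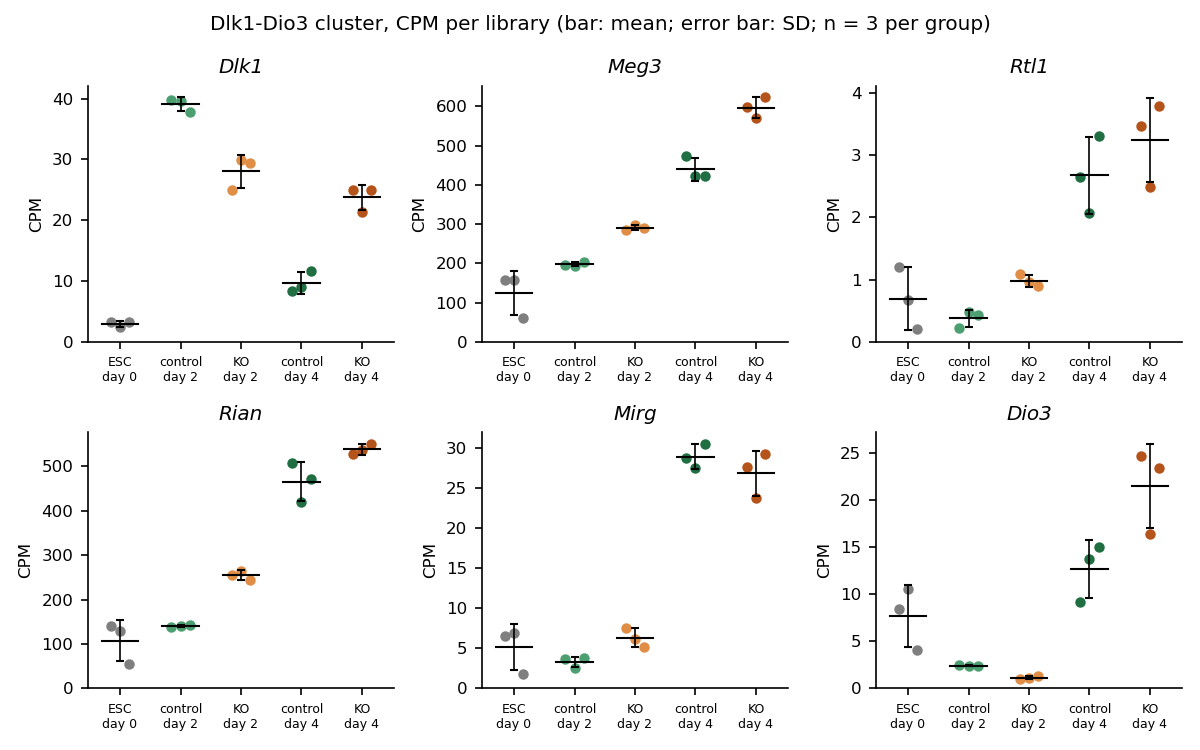
Levels (vertical axis, CPM) of the 6 members of the Dlk1-Dio3 cluster by group, with a point a library, the mean as a bar and the SD as an error bar. Dlk1 is highest in control day 2, at 37.9 to 39.8 CPM, where Dio3 is at 2.36 to 2.51 CPM.

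In the Kcnq1 cluster on chromosome 7 the paternally expressed antisense RNA Kcnq1ot1 is known to silence neighbours on its own copy. Kcnq1ot1 was 7.19, 5.62 and 11.4 CPM in ESCs, 31.8, 30.9 and 33.4 CPM in control day 2, and 67.9, 63.9 and 56.4 CPM in control day 4. It rose by 1.99 ± 0.18 and then by 0.97 ± 0.15. In KO it was 41.4, 28.4 and 34.7 CPM at day 2 and 55.4, 50.6 and 53.9 CPM at day 4, and neither difference passed (0.12 ± 0.15 and -0.24 ± 0.15).

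The maternally expressed genes of that cluster took separate courses. Cdkn1c, for the cell cycle inhibitor p57, was 3.49, 2.57 and 3.69 CPM in ESCs, 29.0, 23.9 and 26.3 CPM in control day 2, and 17.9, 16.7 and 21.6 CPM in control day 4. It rose by 3.02 ± 0.15 and then fell by 0.49 ± 0.13. In KO it was 9.26, 11.4 and 11.1 CPM at day 2 and 10.5, 9.86 and 9.46 CPM at day 4, below every control library of its day, with decreases of 1.31 ± 0.13 (edgeR adjusted p = 1.5e-06) and 0.92 ± 0.13 (edgeR adjusted p = 6.93e-05). Cdkn1c and Kcnq1ot1 were thus both higher at day 2 than in ESCs, and after that Kcnq1ot1 rose and Cdkn1c fell.

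Phlda2, which limits placental growth and starts 42.1 kb from Cdkn1c, fell where Cdkn1c rose. It was 27.0, 26.5 and 19.7 CPM in ESCs, 10.8, 9.21 and 9.51 CPM in control day 2 and 7.22, 8.01 and 6.71 CPM in control day 4, and fell by 1.31 ± 0.17 up to day 2. In KO it was 5.10, 7.74 and 8.06 CPM at day 2 and 2.43, 3.34 and 3.26 CPM at day 4. The fall of 1.28 ± 0.20 at day 4 (edgeR adjusted p = 0.000131) held without each library, and that of 0.49 ± 0.17 at day 2 (edgeR adjusted p = 0.0328) was lost without control day 2 replicate 1 (-0.43), 2 (-0.53) or 3 (-0.52) or KO day 2 replicate 1 (-0.32). The later fall in control cells, -0.43 ± 0.18 (edgeR adjusted p = 0.0426), was lost without control day 2 replicate 1 (-0.37), 2 (-0.47) or 3 (-0.46) or control day 4 replicate 1 (-0.42) or 3 (-0.37).

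Slc22a18, a transporter family gene 12.7 kb from Cdkn1c, was 4.97, 4.35 and 4.71 CPM in control day 2, 2.16, 1.66 and 1.94 CPM in control day 4 and 1.68, 2.41 and 2.44 CPM in KO day 2. It fell by 1.27 ± 0.19 with time and by 1.09 ± 0.18 in KO at day 2 (edgeR adjusted p = 0.000227). At day 4 it did not pass (-0.19 ± 0.22). Ascl2, a bHLH factor of the trophoblast lineage, was 2.08, 2.91 and 6.66 CPM in ESCs, 11.8, 10.5 and 11 CPM in control day 2 and 2.23, 2.69 and 2.36 CPM in control day 4. Like Dlk1 it was highest at day 2, rising by 1.51 ± 0.27 and falling by 2.19 ± 0.28. In KO at day 2 it was 7.04, 6.82 and 7.03 CPM, under each control library, at -0.67 ± 0.25 (edgeR adjusted p = 0.0391), a call lost without any 1 of the 6 libraries (-0.71 to -0.63). The 10 trophoblast markers summed to 177 to 263 CPM in ESCs, above every later library. They summed to 73.6 to 80.3 CPM in control day 2 and 70.5 to 79.8 CPM in control day 4. In KO the sum was 74.5 to 77.3 CPM at day 2 and 59.5 to 63.0 CPM at day 4. Only 5 of the 10 had enough counts to test. Of these, 4 were higher and 1 lower in control day 2 than in ESCs, beside 35.6% and 34.9% of all tested genes. In control day 4, 3 were higher and 1 lower, beside 36.2% and 35.6%. The lower sum thus does not stand for most of the tested markers. At day 2 in KO 1 rose and 4 fell, beside 20.4% and 21.4%. At day 4, 0 rose and 3 fell, beside 19.5% and 18.1%. Tssc4, another gene of the cluster, was 26.2 to 28.5 CPM in ESCs and 17.1 to 18.6 CPM in control day 2, fell by 0.60 ± 0.09, and did not pass in any KO comparison. Kcnq1, a potassium channel gene, had at most 8 counts in a library, and 0 in 2 libraries of control day 4, and was not tested.

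In the Prader-Willi region of chromosome 7 the paternally expressed genes Ndn and Mkrn3 rose from day 2 to day 4. Ndn, for the MAGE protein necdin, was 7.64, 7.89 and 8.08 CPM in control day 2 and 19.4, 19.4 and 21.1 CPM in control day 4, a rise of 1.34 ± 0.13. Mkrn3, a makorin ring finger gene, was 4.07, 3.97 and 4.80 CPM and then 13.4, 10.9 and 13.3 CPM, a rise of 1.55 ± 0.27. Magel2, a MAGE gene that acts in endosomal sorting, had 2, 2 and 6 counts in control day 2 and 37, 18 and 29 counts in control day 4. Snrpn, the gene of the spliceosomal protein SmN, had 0 to 13 counts in a library and was not tested.

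In KO cells Ndn was 6.14, 4.95 and 6.64 CPM at day 2, at -0.42 ± 0.13 (edgeR adjusted p = 0.0197), a call lost without control day 2 replicate 3 (-0.40) or KO day 2 replicate 2 (-0.30). Magel2 had 1, 0 and 1 counts in KO at day 2 and 5, 15 and 11 at day 4. Mkrn3 did not pass at either day.

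Peg3, a paternally expressed zinc finger gene, fell throughout, from 189, 186 and 115 CPM in ESCs to 63.3, 52.6 and 61.9 CPM in control day 2 and 39.4, 38.9 and 31.7 CPM in control day 4. The decreases were 1.46 ± 0.15 and 0.69 ± 0.16. In KO it was 83.7, 63.1 and 77.5 CPM at day 2 (0.33 ± 0.15, which passed only without KO day 2 replicate 2, at 0.44) and 52.4, 53.3 and 48.5 CPM at day 4. The day 4 rise of 0.49 ± 0.16 (edgeR adjusted p = 0.0249) was lost without control day 4 replicate 3 (0.39) or KO day 4 replicate 1 (0.48) or 2 (0.46). Zim1, its maternally expressed neighbour and also a zinc finger gene, did not pass in any control comparison, at 1.32 to 2.69 CPM. In KO at day 4 it was 1.09, 0.922 and 0.652 CPM, at -0.84 ± 0.32 (edgeR adjusted p = 0.0469), a call that was kept in 1 of 6 fits that each left out a library and lost without control day 4 replicate 1 (-0.71), 2 (-0.87) or 3 (-0.92) or KO day 4 replicate 2 (-0.86) or 3 (-0.67).

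Pairs in which a paternally expressed retrogene lies inside a host gene moved unequally. Zrsr1, a splicing factor retrogene, lies in Commd1, a COMM domain gene, on chromosome 11. Zrsr1 was 32.8, 36.3 and 45.6 CPM in ESCs, 17.6, 21.2 and 21.3 CPM in control day 2, and 52.4, 47.9 and 55.7 CPM in control day 4, with a fall of 0.93 ± 0.12 and a rise of 1.37 ± 0.12. Commd1 was 53.7 to 59.5, 38.6 to 42.1 and 32.6 to 39.6 CPM in the same groups, fell by 0.46 ± 0.10 up to day 2 and did not pass after that (-0.20 ± 0.10), except without control day 4 replicate 3 (-0.28). In KO at day 2 Zrsr1 was 37.8, 29.96 and 36 CPM and rose by 0.78 ± 0.12 (edgeR adjusted p = 8.06e-05), and at day 4 it was 46.9, 45.7 and 42.8 CPM (-0.20 ± 0.11, which did not pass). The difference between the days was -0.99 ± 0.16 (edgeR adjusted p = 0.000237). Commd1 did not pass between KO and control at either day.

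Mcts2, a retrogene copy of Mcts1, lies in H13, the gene of signal peptide peptidase, on chromosome 2. Mcts2 was 21.5, 18.3 and 15.2 CPM in ESCs, 7.64, 8.93 and 9.51 CPM in control day 2, and 19.2, 16.4 and 19 CPM in control day 4. It fell by 1.07 ± 0.13 and rose again by 1.07 ± 0.13. H13 was 37.3, 29.5 and 23.1 CPM, then 40.7, 38.5 and 40.4 CPM, then 72.8, 85.7 and 85 CPM, and rose at both steps, by 0.41 ± 0.12 and 1.02 ± 0.11. Neither passed between KO and control. Reads shared with the parent gene or host cannot be told apart here.

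The Gnas locus on chromosome 2 makes transcripts from both parental copies that share exons, so the level of Gnas, the stimulatory G protein subunit, is a sum. It was 248, 249 and 236 CPM in control day 2 and 158, 161 and 183 CPM in control day 4, a fall of 0.55 ± 0.06. In KO it was 242, 247 and 244 CPM at day 2, within the control range, and 257, 248 and 243 CPM at day 4, a rise of 0.58 ± 0.06 over control (edgeR adjusted p = 1.26e-06). The day 4 value in KO was thus near that of day 2, and the change between the days in KO, 0.03 ± 0.05, did not pass. Nespas, the paternally expressed antisense RNA of the locus, rose from 4.69, 5.57 and 4.67 CPM to 9.56, 8.01 and 9.07 CPM in control cells, by 0.84 ± 0.17. It was lower in KO at both days. At day 2 it was 3.81, 3.62 and 2.49 CPM, at -0.59 ± 0.18 (edgeR adjusted p = 0.0148), lost without control day 2 replicate 2 (-0.50) or KO day 2 replicate 3 (-0.43). At day 4 it was 5.71, 5.99 and 6.33 CPM, at -0.56 ± 0.17 (edgeR adjusted p = 0.0167), lost without control day 4 replicate 1 (-0.51) or KO day 4 replicate 1 (-0.53).

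Nnat, for the small membrane protein neuronatin, is paternally expressed. It was 11.5, 11.8 and 10.8 CPM in control day 2 and 5.75, 6.07 and 5.53 CPM in KO day 2. At day 4 it was 18.3, 15.7 and 14.5 CPM in control and 6.01, 5.88 and 5.48 CPM in KO. The KO libraries lay at about the same level at both days, and the decreases were 0.97 ± 0.23 (edgeR adjusted p = 0.00356) and 1.48 ± 0.24 (edgeR adjusted p = 0.000162). Impact, which restrains the stress kinase GCN2, was 138, 139 and 131 CPM in control day 2 and 355, 316 and 303 CPM in control day 4, and rose by 1.25 ± 0.06. In KO it was 210, 211 and 199 CPM at day 2 and 264, 280 and 263 CPM at day 4. The KO effect was 0.60 ± 0.06 (edgeR adjusted p = 2.17e-06) and then -0.27 ± 0.06 (edgeR adjusted p = 0.00235), on chromosome 18, whose genes had medians of 0.56 and 0.01. Relative to its chromosome the day 2 value of Impact was therefore near the median.

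Plagl1, a paternally expressed zinc finger factor, was 40.6, 39.8 and 21.6 CPM in ESCs and 62, 64.3 and 60.02 CPM in control day 2, a rise of 0.87 ± 0.16. It did not pass from day 2 to day 4 or in KO. Peg13, a noncoding RNA inside Trappc9, was 2.50 to 4.90 CPM in ESCs, 4.28 to 6.24 CPM in control day 2 and 6.35 to 8.66 CPM in control day 4, and rose by 1.10 ± 0.22 from ESCs to day 4. Its rise from day 2 to day 4 alone, 0.56 ± 0.21 (edgeR adjusted p = 0.0252), was lost without control day 2 replicate 1 (0.55) or 3 (0.42) or control day 4 replicate 1 (0.47) or 3 (0.52). Between KO and control Peg13 passed only at day 2 without control day 2 replicate 3 (-0.63).

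Over all members, genes of both classes differed between KO and control in both directions. At day 2, 8 members were higher and 11 lower in KO, where 20.4% of tested genes were higher and 21.4% lower. At day 4, 6 were higher and 8 lower, beside 19.5% and 18.1%. The medians were 0.0021 and -0.14, beside -0.01 and -0.01 for all genes. Both classes held genes of each direction: at day 2, 4 maternally expressed members rose and 5 fell, and 4 paternally expressed members rose and 6 fell. At day 4, 3 and 3 maternally expressed members rose and fell, and 3 and 5 paternally expressed ones. When a library was left out, the day 2 counts were 5 (without KO day 2 replicate 1) to 7 higher and 6 (without control day 2 replicate 2) to 8 lower, with 7 lower without control day 2 replicate 1 or KO day 2 replicate 2.

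The KO effect differed between the days for 14 members, 7 in each direction, beside 18.6% and 17.6% of tested genes. Among the members that differed, Dlk1, Dio3 and Igf2r went from lower to higher and Impact and Sgce from higher to lower, of which the day 2 calls of Dio3, Igf2r and Sgce were lost without some single libraries, as given above. Grb10, Gnas and Zim1 passed only at day 4 and Copg2, Zrsr1, Slc22a18 and Mirg only at day 2, each with a called difference between the days. The day 4 call of Zim1 and the day 2 call of Mirg were lost without some single libraries. So were the called differences of Zim1, Mirg and Slc22a18, as given below. The KO comparisons at day 2 and day 4 share no library. Cdkn1c, Nnat, Nespas, Phlda2 and Peg10 were lower in KO at both days. Of these, the calls of Nespas at both days, Phlda2 at day 2 and Peg10 at day 4 were lost without some single libraries, as given above.

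**Figure D5:**
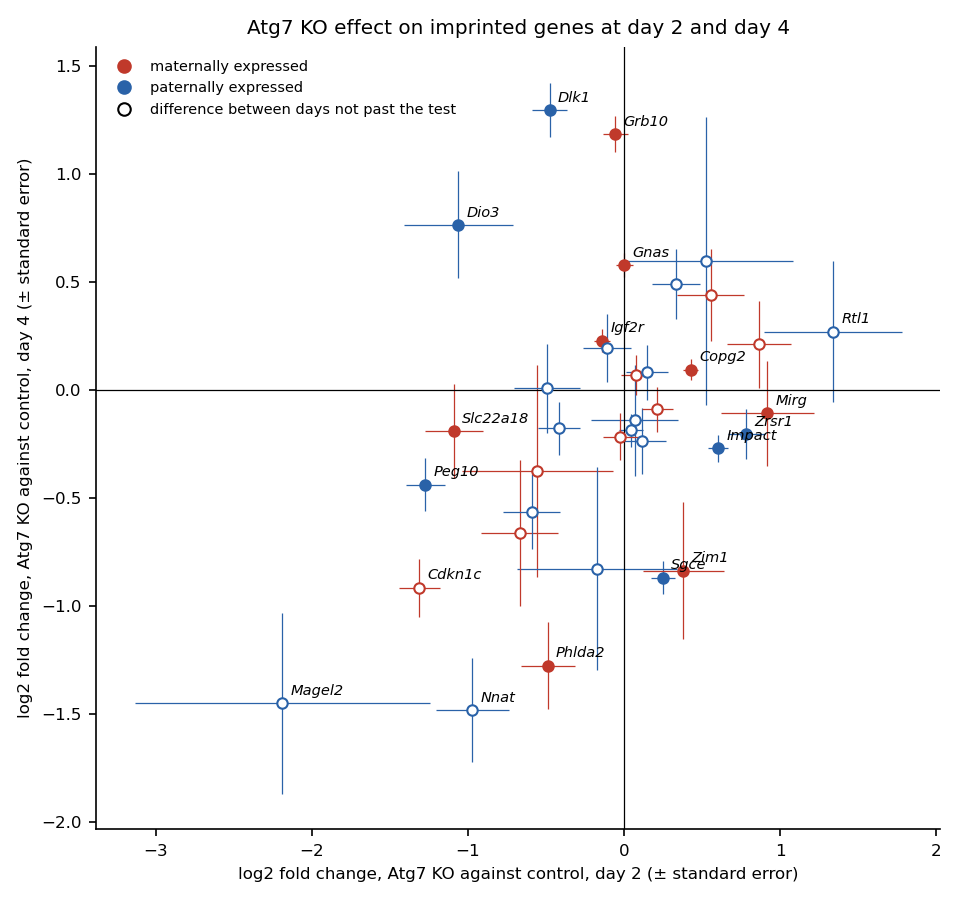
Log2 fold change of Atg7 KO against control for the 36 tested members at day 2 (horizontal axis) and at day 4 (vertical axis), with standard errors from the edgeR model as bars. Maternally expressed members are red and paternally expressed ones blue, and filled points mark a called difference between the days. Dlk1 lies at -0.48 at day 2 and 1.29 at day 4, and Cdkn1c at -1.31 and -0.92. Magel2 is drawn here as well, although it was tested only because of control day 4, its highest group.

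Genes known to keep or set imprints were followed as a list of 20. From day 2 to day 4 in control cells 13 rose and 3 fell, or 65.0% and 15.0% beside 33.9% and 34.6% of all tested genes. In KO cells 5 rose and 10 fell at day 2, or 25.0% and 50% beside 20.4% and 21.4%, with a median of -0.21. At day 4, 8 rose and 2 fell, or 40.0% and 10% beside 19.5% and 18.1%, with a median of 0.11. Zfp57, whose protein binds the methylated hexamer named above, was 511 ± 29.5 CPM in control against 301 ± 6.61 CPM in KO at day 2, and 358 ± 9.45 against 511 ± 27.6 CPM at day 4 (SD, n = 3). Its KO effect turned from -0.77 ± 0.09 (edgeR adjusted p = 6.93e-06) to 0.51 ± 0.09 (edgeR adjusted p = 0.000282). Trim28, the corepressor that ZFP57 recruits, rose in KO at day 4 by 0.77 ± 0.05.

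Among the DNA methylation genes of that list, Dnmt3l, the cofactor of de novo methyltransferases, was 306 ± 9.23 CPM in control against 95.1 ± 4.09 CPM in KO at day 2, and 505 ± 78.9 against 299 ± 21.5 CPM at day 4 (SD, n = 3). Dnmt3l fell in KO at day 2 by 1.69 ± 0.18 (edgeR adjusted p = 3.15e-06). Dppa3, which protects maternal methylation in the zygote, was 39.2 ± 5.79 CPM in control against 4.37 ± 0.921 CPM in KO at day 4 and fell by 3.16 ± 0.17 (edgeR adjusted p = 8.75e-09). Tet1, which oxidises methylcytosine, was 357 ± 47.3 CPM in control against 639 ± 15.7 CPM in KO at day 4, a rise of 0.84 ± 0.09 (edgeR adjusted p = 4.15e-06). Methylation itself was not measured in these libraries.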

How the data were processed

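RNA-seq of polyadenylated RNA was analysed in 15 libraries of 5 groups, which were assigned from the sample titles. The tables deposited by the authors hold raw counts for each gene symbol, 1 library in each. The submitters' processing notes name the tools featureCounts, STAR, DESeq2 and StringTie and the builds GRCm38 and mm10. Their versions, the annotation, strand use and the handling of shared reads were not given in the sources used here. Counts were tested in R 4.3.3 with edgeR 4.0.16: filterByExpr over the 5 groups (minimum count 10, minimum total 15) kept 15696 of 24982 symbols, TMM factors scaled the libraries, and 1 quasi-likelihood model with 5 group means left 10 residual degrees of freedom. The Benjamini-Hochberg adjustment covered all tested genes of a comparison. The procedure was tested on simulated data. Replicates of a group differed by more than counting noise (chi-square of 3.20 to 31.78 per degree of freedom), so none was counted as a duplicate.

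The members and the gene lists were chosen with earlier results of these data known. All members are described, and of the lists the 6 genes with the smallest p in a comparison could be named. Atg7 and Hprt were chosen after their values were seen. Gene positions and exon lengths are from GENCODE M21 on GRCm38, and promoter sequences from RefSeq on GRCm38.p6. Alternatives were a fibroblast score as a covariate, DESeq2 1.42.0, upper quartile or RLE scaling, a filter of 10 CPM in 3 libraries or none, a replicate block, fits restricted to the groups compared, a null of a 1.5-fold change, a fit of 13 libraries that dropped KO day 2 replicate 2 and ESC replicate 3, and leaving out each library in turn.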

Additional observations from a re-analysis of the deposited data

Results flagged for a closer look

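The KO effect differed between day 4 and day 2, by edgeR's test of the difference itself with Benjamini-Hochberg adjustment, for 14 of the 36 tested members. It was more positive at day 4 for Dio3 (1.83), Dlk1 (1.77), Grb10 (1.24), Slc22a18 (0.90), Peg10 (0.83), Gnas (0.57) and Igf2r (0.37). It was more negative at day 4 for Zim1 (-1.22), Sgce (-1.12), Mirg (-1.03), Zrsr1 (-0.99), Impact (-0.87), Phlda2 (-0.79) and Copg2 (-0.33). Impact lies on chromosome 18, where the median over tested genes was -0.59, and Sgce, Copg2 and Peg10 on chromosome 6, whose median was -0.18.

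Some of these calls were lost when a library was left out. Mirg was lost in 11 of 12 such fits (-1.14 to -0.87 over the 12), and it stayed past the threshold without KO day 2 replicate 3. Zim1 was lost without control day 2 replicate 1 (-1.17) or 2 (-1.16), KO day 2 replicate 1 (-1.17) or 2 (-1.08), control day 4 replicate 1 (-1.09) or KO day 4 replicate 3 (-1.05). Phlda2 was lost without control day 2 replicate 2 (-0.74) or 3 (-0.76), KO day 2 replicate 2 (-0.70) or 3 (-0.67), control day 4 replicate 2 (-0.72) or KO day 4 replicate 1 (-0.65). Slc22a18 was lost without KO day 2 replicate 1 (0.76), control day 4 replicate 2 (0.81) or KO day 4 replicate 2 (0.80). The other 10 kept their call in each of the 12 fits.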

How the results depend on the processing

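Of 252 results of single members, those of Magel2 included, 156 passed, and 128 of these kept their call when each library was left out in turn. No result that passed turned its direction with RLE or upper quartile scaling, no filter, the stricter filter or DESeq2. Against a 1.5-fold change fewer members passed: 9 higher at day 2 against ESCs, 3 lower from control day 2 to day 4, 5 lower at day 4 against ESCs, 0 higher and 3 lower in KO at day 2, 2 higher and 3 lower in KO at day 4, 3 lower from KO day 2 to day 4, and 3 higher and 2 lower in the difference of the KO effect. Fits of only the groups compared gave 15 lower in KO at day 4 and 14 lower in the difference, and 13 libraries gave 14 lower in KO at day 4. With single libraries left out, members higher in KO at day 2 numbered 5 to 7 and those lower 6 to 8, and the difference had 4 to 6 lower, with 4 without control day 2 replicate 2 or KO day 2 replicate 2. The replicate numbers did not pair the samples, since same-numbered deviations correlated at -0.05 to 0.057. With a replicate block the members higher in KO at day 2 numbered 7 rather than 8. The block took the call of Meg3 in KO at day 2 (0.55, adjusted p = 0.0531) and of Mirg in the difference (-1.01).

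The fibroblast score as a covariate, which also tracks day and genotype, left 4 members lower from KO day 2 to day 4. It turned 17 directions of results that passed in either fit, for a cause that was not tested. Within each day the score was higher in every KO library than in every control library, so a KO effect cannot be told from it here. H19 became 2.15 at day 2 and 4.60 at day 4 against ESCs and 2.45 between control days. Igf2 became 1.98 between control days, 1.76 at day 4 against ESCs, -1.12 and -1.14 in KO at day 2 and day 4, and 1.97 between KO days. Between control days Phlda2 became 0.028 and Plagl1 0.41, and between KO days Plagl1 became 0.67, Zrsr1 -0.034 and Kcnq1ot1 -0.12. At day 4 against ESCs Mcts2 became 0.74 and Zrsr1 -0.33. In KO Meg3 became -0.027 at day 2 and Rian -0.40 at day 4. Counts of members in this section include Magel2. Counts under 10 in a library limit Magel2, Snrpn and Kcnq1. They also limit Airn and Rtl1, which had 29 and 24 counts in the 3 control day 2 libraries together.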

Other observations

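Another 49 imprinted genes were followed as a list, and 39 had enough counts to test. From ESCs to control day 4, 20 rose and 9 fell, or 51.3% and 23.1% beside 36.2% and 35.6% of all tested genes, with a median of 0.60. In KO cells 9 rose and 15 fell at day 2, or 23.1% and 38.5% beside 20.4% and 21.4%. At day 4, 4 rose and 13 fell, or 10.3% and 33.3% beside 19.5% and 18.1%. Cobl, an actin nucleator gene next to Grb10 on chromosome 11, was 313 ± 9.35 CPM in ESCs, 104 ± 10.9 CPM in control day 2, 81.6 ± 6.27 CPM in control day 4 and 193 ± 6.03 CPM in KO day 4 (SD, n = 3). Like Grb10 it fell from ESCs to control day 4, by 1.94 ± 0.07, and rose in KO at day 4, by 1.24 ± 0.07 (edgeR adjusted p = 1.61e-08). Ddc, on the other side of Grb10, fell from 29.4 ± 0.43 CPM in ESCs to 6.51 ± 1.45 CPM in control day 4, by 2.17 ± 0.13.

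Sfmbt2, a Polycomb-related gene of chromosome 2, had 46.0 ± 1.78 CPM in control against 25.6 ± 2.29 CPM in KO at day 2, and 141 ± 15.8 against 101 ± 4.42 CPM at day 4 (SD, n = 3). It fell in KO at both days, by 0.84 ± 0.10 and 0.48 ± 0.09. Zdbf2, on chromosome 1, had 102 ± 16.8 CPM in control against 186 ± 15.6 CPM in KO at day 4, a rise of 0.87 ± 0.15 (edgeR adjusted p = 0.000276). Usp29, which lies beside Peg3, rose in KO at day 2 by 1.01 ± 0.20. Slc38a4, an amino acid transporter gene of chromosome 15, had 692 ± 32.7 CPM in control against 607 ± 10.6 CPM in KO at day 2, and fell in KO at day 4 by 0.36 ± 0.06, from 609 ± 8.29 to 474 ± 23.3 CPM.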
